A study of Mus musculus with 45 samples.

Results

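Voltage-gated sodium channels were followed in mouse primary hippocampal neurons through 7 genes of the family. These were the α subunit genes Scn8a, Scn1a, Scn3a and Scn9a and the β subunit genes Scn2b, Scn3b and Scn4b, picked by gene symbol, out of 54532 genes in the count table. All 7 had reads in every comparison. Neurons were taken from newborn C57BL/6N mice, grown with 1% rat serum and with AraC, which stops glia from dividing, and treated at day 10 or 11 in vitro. One library came from each of 5 culture preparations in each of 9 conditions, which made 45 libraries. Preparations are named by the replicate number in the sample titles (1, 3, 6, 7 and 8). The control was untreated. Bicuculline (Bic, 50 µM), which blocks GABA type A receptors and so starts action potential firing, was given for 0.5, 1 or 2 h. In the short protocol (SP), 0.5 h of Bic was followed by 0.5 h of Bic with tetrodotoxin (TTX, 1 µM) or with TTX and NMDA (30 µM). In the long protocol (LP), a further 1 h with Bic came after the initial 1 h, with the addition of TTX, of TTX plus NMDA, or of the glutamate uptake blocker TBOA (50 µM). The passive effect compares TTX with Bic of the same total duration, the active effect compares TTX/NMDA with TTX, the total effect compares TTX/NMDA with Bic, and glutamate spillover compares TBOA with 2 h Bic. Levels are read counts scaled to library size by TMM, on the CPM scale, and a gene is said to have risen or fallen where edgeR's quasi-likelihood test gave a Benjamini-Hochberg adjusted p under 0.05 over all genes tested.

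A voltage-gated sodium channel is built on a large α subunit that forms the pore, opens on depolarization and carries the rising phase of the action potential. Smaller β subunits, which span the membrane and carry an immunoglobulin-like domain, adjust gating, surface delivery and cell adhesion. The α subunits of Scn1a, Scn3a, Scn8a and Scn9a are all blocked by TTX, so that the drug used to silence the cultures acts on the products of these genes.

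Promoters are shown for Scn8a, which had the largest change among the 4 α genes followed here, and for Scn1a and Scn2b. Scn1a was lower in the LP active and Scn2b in the LP total effect. The windows show how unlike the starts of these genes are. The windows are RefSeq's, on GRCm38.p6, and run from 250 bases before to 50 after a start, 5′ to 3′ on the gene's strand, with CG dinucleotides in capitals. The Scn8a window is the upstream of 2 and lies at chr15:100870395-100870694 on the plus strand. The Scn1a window lies at chr2:66440788-66441087 on the minus strand, and the Scn2b window at chr9:45117626-45117925 on the plus strand.
Scn8a: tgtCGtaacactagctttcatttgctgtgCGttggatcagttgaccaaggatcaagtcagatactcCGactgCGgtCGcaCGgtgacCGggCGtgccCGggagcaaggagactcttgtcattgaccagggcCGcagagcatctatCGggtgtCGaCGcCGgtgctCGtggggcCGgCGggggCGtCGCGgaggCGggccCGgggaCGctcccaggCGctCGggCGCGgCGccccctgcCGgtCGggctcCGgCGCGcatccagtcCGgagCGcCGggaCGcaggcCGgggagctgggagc
Scn1a: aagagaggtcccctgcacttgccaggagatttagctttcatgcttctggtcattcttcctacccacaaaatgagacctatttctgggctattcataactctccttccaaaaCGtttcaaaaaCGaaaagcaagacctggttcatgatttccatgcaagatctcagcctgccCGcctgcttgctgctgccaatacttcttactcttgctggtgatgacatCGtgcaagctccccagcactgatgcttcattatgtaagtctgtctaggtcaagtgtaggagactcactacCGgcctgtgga
Scn2b: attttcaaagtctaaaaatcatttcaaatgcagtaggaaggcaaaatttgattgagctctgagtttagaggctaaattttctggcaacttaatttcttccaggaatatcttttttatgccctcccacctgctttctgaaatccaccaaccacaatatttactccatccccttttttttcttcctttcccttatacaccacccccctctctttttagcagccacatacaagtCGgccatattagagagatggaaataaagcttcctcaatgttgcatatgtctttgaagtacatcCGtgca
The Scn8a window held 38 CG dinucleotides, as many as or more than which only 4.95% of the 32851 windows held, and was 70.0% G or C. The Scn1a window held 5 and the Scn2b window 2, against a median of 7 over all windows, and they were 47.3% and 38.3% G or C. Windows were found for 5 of the 7 genes, 6 windows in all with the downstream one of Scn8a. On either strand, none of the 6 contained TGACGTCA (the cAMP response element, in 1.79% of all windows), its part TGACG (20.8%), the AP-1 site TGANTCA (7.81%), the EGR site GCGTGGGCG (0.612%) or the CArG box of serum response factor (1.63%). These are descriptions of letters in 300 bases and say nothing of the factors.

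The libraries held 11316580 to 81129276 counts on genes, with a median of 26239614. No libraries had identical counts, and the lowest correlation of log counts within a condition was 0.9895. Markers of hippocampal excitatory neurons summed to 1334 ± 177 to 2655 ± 192 CPM over the 9 conditions (mean ± SD, n = 5), and those of GABAergic interneurons to 1781 ± 191 to 2663 ± 367 CPM, so the cultures held neurons of both kinds. Astrocyte markers reached 1140 ± 138 to 1651 ± 394 CPM and microglia markers 7.26 ± 1.01 to 10.9 ± 1.48 CPM. In such bulk samples, fewer cells of a type and less RNA per cell cannot be told apart. The p-values measure the spread between 5 preparations.

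Of the 7 genes, 5 were abundant and 2 were near the limit of detection. Per kilobase of exon, the scale on which genes are compared, Scn3b had the highest level in every condition (34.9 to 44.2 CPM per kb as condition means), followed by Scn2b (28.2 to 36.3) and Scn8a (12.6 to 17.7). Scn3b encodes a β subunit that binds α without a covalent bond, and Scn2b one that is linked to α by a disulfide bridge. Scn1a followed at 7.90 to 9.48 and Scn3a at 4.53 to 6.29 CPM per kb. Scn1a is the α subunit known for fast-spiking interneurons and for Dravet syndrome, and Scn3a is the α subunit most used in the embryonic brain. Scn4b, whose product is tied to resurgent current, had 0.122 to 0.161 CPM per kb, and Scn9a, best known from sensory neurons, 0.0333 to 0.0498. Scn8a, the α subunit of the mature axon initial segment, made up 51.7% ± 3.85 of the length-scaled level of the 4 α genes in the control (SD, n = 5), Scn1a 27.3% ± 3.45 and Scn3a 20.9% ± 2.66.

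**Figure D1:**
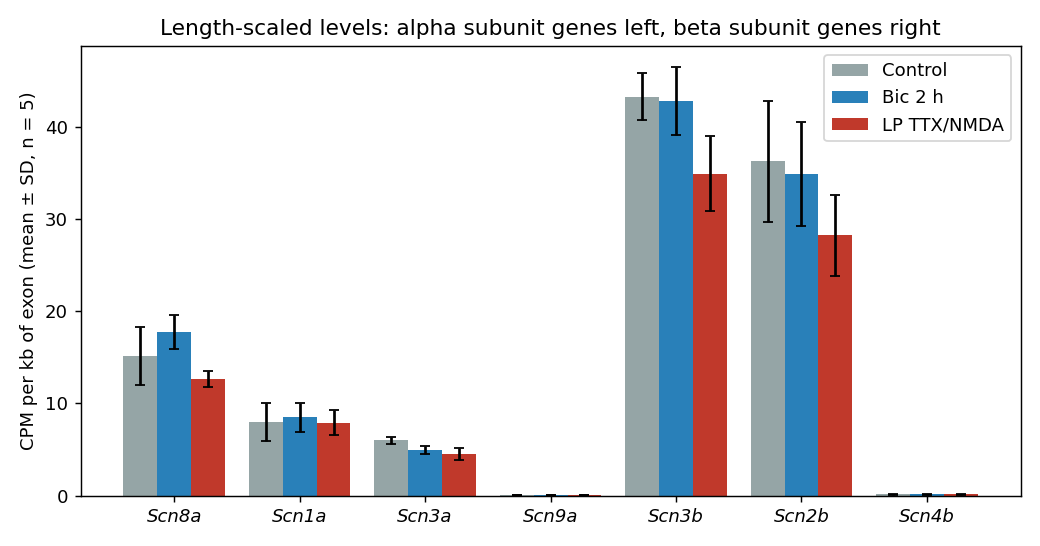
Mean CPM per kb of exon (bars, SD as lines, n = 5 preparations) of the 7 genes in the control, after 2 h Bic and with LP TTX/NMDA. Scn3b and Scn2b stand above the α genes, while Scn9a and Scn4b are barely above the axis.

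With Bic, Scn3a fell and none of the other 6 genes was called. After 0.5 and 1 h of Bic none of the 7 genes had changed, where 0.289% and 1.16% of all tested genes had, and 0 of 7 reached an unadjusted p under 0.05 with edgeR or were called with DESeq2. Scn3a differed from the control by log2 0.058 (SE 0.082) at 0.5 h and −0.050 (SE 0.081) at 1 h, and Scn8a by 0.11 (SE 0.098) and 0.16 (SE 0.10). After 2 h only Scn3a was called, 1 of 7, where 9.02% of all tested genes were (4.78% as lower) and 15.2% (4.95% as lower) of the 4666 genes with a mean of at least 50 CPM, the range that holds the 5 abundant members. Scn3a stood at 76.4, 67.9, 79.9, 74.9 and 74.4 CPM in control preparations 1, 3, 6, 7 and 8, and at 65.2, 67.7, 64.2, 59.7 and 53.9 CPM after 2 h. The 2 groups did not overlap, but in preparation 3 the level moved by only −0.256%. The log2 fold change was −0.28 (SE 0.078, adjusted p = 0.0161 by edgeR), lower in 5 of 5 preparations, and the call was lost without preparation 6, 7 or 8 (adjusted p = 0.0741, 0.0928 and 0.0965 by edgeR).

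Scn8a moved the other way without passing the test. Its levels were 280.2, 159, 279.5, 237 and 239.5 CPM in the control and 292, 267, 321, 274 and 244 CPM after 2 h Bic. The control library of preparation 3 was the lowest of the 45, and its groups overlapped. The log2 difference was 0.21 (SE 0.10, adjusted p = 0.272 by edgeR, and 0.0539 in the fit that paired libraries of the same preparation), with higher values in 5 of 5 preparations. Without preparation 3 it was 0.12 (adjusted p = 0.487 by edgeR), and the difference at 1 h was 0.076. When the pairing was made over all genes with a read, Scn8a was called after 1 h (adjusted p = 0.0422 by edgeR) and 2 h (0.00103). That fit called 1215 of 30765 tested genes after 1 h and 4893 of 30929 after 2 h. The ratio of Scn8a to Scn3a, per length, was 2.51 ± 0.403 in the control, 2.62 ± 0.220 after 0.5 h, 2.93 ± 0.310 after 1 h and 3.56 ± 0.299 after 2 h Bic (SD, n = 5). The lowest ratio after 2 h (3.11) was above the highest in the control (2.90). This ratio was chosen after its values were seen and is given without a test. Scn1a, Scn2b and Scn3b differed from the control after 2 h by log2 0.071 (SE 0.12), −0.068 (SE 0.10) and −0.029 (SE 0.076).

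**Figure D2:**
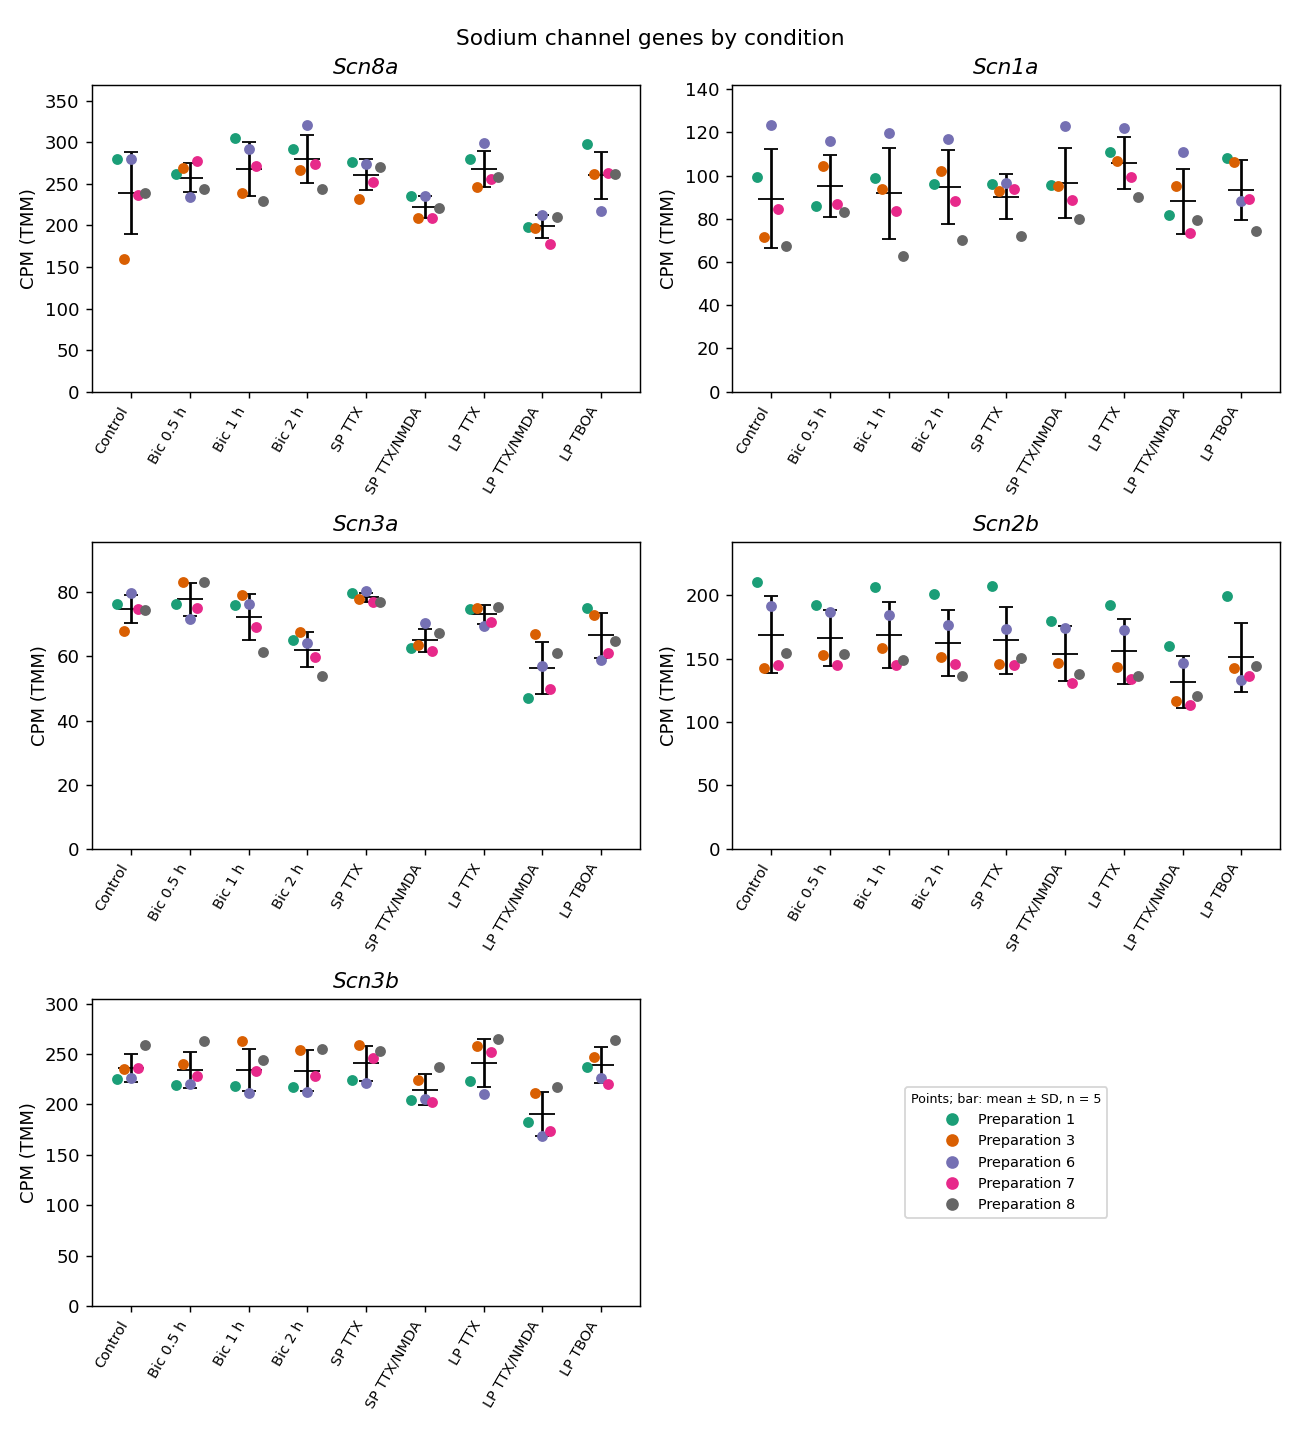
TMM-scaled CPM of the 5 abundant genes in each library (points, colored by preparation) with mean ± SD (bars, n = 5) in the 9 conditions. The LP TTX/NMDA mean is the lowest of the 9 for all 5 genes, from 56.4 CPM for Scn3a to 199 CPM for Scn8a, and preparations 1 and 6 tend to lie above the others for Scn2b.

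In the SP, TTX alone had no called effect on any of the 7 genes, where 0.268% of all tested genes were called. With edgeR 0 of 7 had an unadjusted p under 0.05, and DESeq2 called 0 of 7. The log2 differences of the 5 abundant genes ran from −0.040 (Scn2b, SE 0.090) to 0.11 (Scn3a, SE 0.070). Adding NMDA lowered 2 of 7, Scn8a and Scn3a, where 4.28% of all tested genes (3.32% as lower) and 16.2% of genes with at least 50 CPM (15.2% as lower) were called. Scn3a stood at 79.7, 77.85, 80.3, 77.1 and 77.0 CPM with TTX and at 62.6, 63.6, 70.3, 61.8 and 67.3 CPM with TTX/NMDA, 2 groups that did not overlap. The log2 fold change was −0.28 (SE 0.065, adjusted p = 0.00752 by edgeR). Scn8a stood at 276, 232, 274, 253 and 271 CPM with TTX and at 236, 209, 236, 209 and 221 CPM with TTX/NMDA, which overlap. The log2 fold change of Scn8a was −0.24 (SE 0.069, adjusted p = 0.0331 by edgeR), lower in 5 of 5 preparations. Scn3a was no longer called without preparation 1 (adjusted p = 0.0675 by edgeR), and Scn8a without preparation 1, 7 or 8 (0.102, 0.0887 and 0.0580) or with all 45 libraries in 1 fit (0.185).

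Scn3b differed by log2 −0.17 (SE 0.069, adjusted p = 0.199 by edgeR) in the SP active effect, lower in 5 of 5 preparations, and was called in the paired fit (adjusted p = 0.0427), which called 16.2% of the genes it tested. In the SP total effect Scn8a fell by 0.27 on the log2 scale (SE 0.073, adjusted p = 0.0206 by edgeR), 1 of 7 genes where 4.3% of all tested genes were called (3.41% as lower) and 16.5% of genes with at least 50 CPM (15.5% as lower). That call was lost without preparation 1, 6 or 7 (adjusted p = 0.108, 0.0569 and 0.0578 by edgeR), and Scn3a was called without preparation 8 (−0.23, adjusted p = 0.0386). In the paired fit, which called 27.3% of the genes it tested, Scn3a, Scn2b and Scn3b were called as well, by −0.16, −0.14 and −0.13 (adjusted p = 0.04999, 0.0198 and 0.0332). Against the 0.5 h Bic from which the protocol started, SP TTX/NMDA lowered Scn3a (log2 −0.28, SE 0.070, adjusted p = 0.0171 by edgeR), 1 of 7 where 3.21% of all tested genes were called (2.58% as lower) and 13.6% of genes with at least 50 CPM (12.5% as lower). Preparations 1, 3 and 7 each decided that call (adjusted p = 0.0951, 0.195 and 0.0802 without them). In the paired fit, where 32.4% of genes were called, Scn8a, Scn2b and Scn3b were lower too (log2 −0.23, −0.13 and −0.14, adjusted p = 0.00354, 0.00876 and 0.00419), and the Scn8a value without pairing was −0.23 (adjusted p = 0.0559 by edgeR, and 0.0287 and 0.0297 without preparation 6 or 8). The SP total and active effects share the TTX/NMDA libraries.

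In the LP, Scn3a was higher with TTX alone than after 2 h Bic, and no other member was called. This was 1 of 7, where 4.65% of all tested genes (3.03% as higher) and 12.2% of genes with at least 50 CPM were called. Scn3a stood at 65.2, 67.7, 64.2, 59.7 and 53.9 CPM after 2 h Bic and at 74.7, 75.1, 69.4, 70.8 and 75.5 CPM with LP TTX, with no overlap. The LP TTX mean was 73.1 ± 2.83 CPM. It lay near the mean after 1 h Bic, when TTX was added (72.4 ± 7.11 CPM), and near that of the control (74.7 ± 4.37 CPM, SD, n = 5). LP TTX was not tested against 1 h Bic. The log2 fold change from 2 h Bic was 0.23 (SE 0.065, adjusted p = 0.0369 by edgeR), and the call was lost without preparation 7 or 8 (0.110 and 0.134) and with all 45 libraries in 1 fit (0.0786). Scn1a was 0.15 higher on the log2 scale (SE 0.089, adjusted p = 0.453 by edgeR), in 5 of 5 preparations, and was called in the paired fit (0.0139), which called 32% of the genes it tested. The Scn8a over Scn3a ratio was 2.90 ± 0.318 with LP TTX.

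Adding NMDA in the LP lowered Scn8a, Scn3a, Scn3b and Scn1a, 4 of 7 genes. This is the condition with the widest response in these data: 23.3% of all tested genes were called, 11.8% as lower, and 57.8% of genes with at least 50 CPM, 48.8% as lower. The share of members that fell is therefore to be read against a background of falling abundant genes. The median log2 fold change was 0.11 over all tested genes, −0.18 over genes with at least 50 CPM and −0.29 over the 7 members. The member median is the value of Scn9a, which is near the limit of detection. The abundant members ran from −0.25 (Scn2b) to −0.44 (Scn8a).

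Scn8a stood at 280.3, 246, 299, 255 and 258 CPM with LP TTX and at 199, 197, 213, 178 and 209.6 CPM with TTX/NMDA, with no overlap. It fell by 25.4% ± 5.60 within preparations (SD, n = 5), a log2 fold change of −0.44 (SE 0.069, adjusted p = 1.50e-05 by edgeR). Scn3a went from 74.7, 75.1, 69.4, 70.8 and 75.5 CPM to 47.1, 67.1, 57.1, 49.7 and 60.9 CPM, also with no overlap. Its log2 fold change was −0.38 (SE 0.078, adjusted p = 0.000405 by edgeR), and the decrease was smallest, 10.7%, in preparation 3 and largest, 36.9%, in preparation 1. Scn1a went from 111, 106.5, 122, 99.2 and 89.9 CPM to 81.7, 95.2, 111, 73.4 and 79.2 CPM, lower in 5 of 5 preparations although the groups overlap. Its log2 fold change was −0.27 (SE 0.090, adjusted p = 0.0261 by edgeR). Without preparation 1 or 7 Scn1a was not called (0.110 and 0.0627), nor was it with DESeq2 (0.0682), a filter on low counts (0.0802) or all 45 libraries in 1 fit (0.168).

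Among the β subunit genes, Scn3b went from 223, 258, 210.0, 252 and 265 CPM to 182, 211, 169, 174 and 217 CPM. The groups overlap, but the level fell in 5 of 5 preparations, by 21.1% ± 5.58 (SD). The log2 fold change was −0.35 (SE 0.078, adjusted p = 0.000937 by edgeR). Scn2b went from 192, 143, 173, 134 and 136 CPM to 159.7, 116, 147, 114 and 121 CPM, lower in 5 of 5 preparations by 11.6% to 18.9%. Preparations differ more in Scn2b than the treatment moves it, and the log2 difference of −0.25 (SE 0.096) missed the threshold (adjusted p = 0.0591 by edgeR) but was called in the paired fit (adjusted p = 0.000212, with 62.1% of the genes it tested called) and without preparation 1 or 8 (0.0417 and 0.0110).

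**Figure D3:**
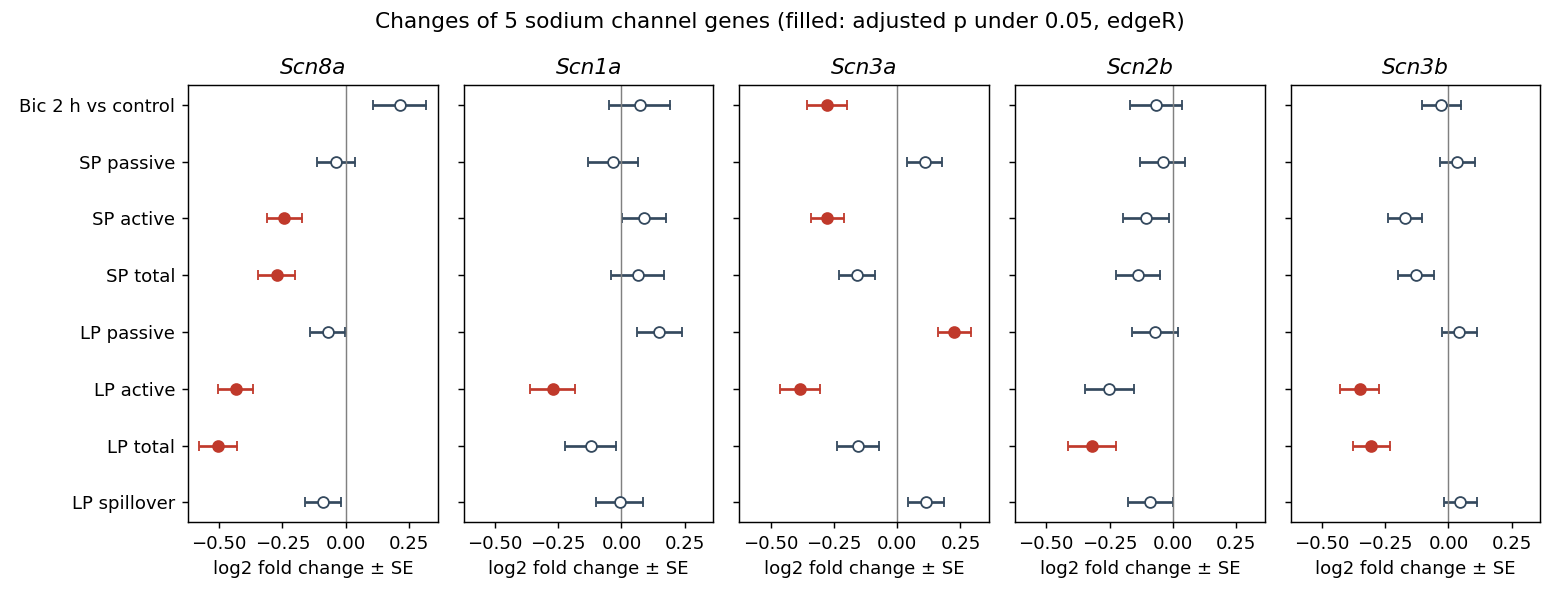
Log2 fold changes (points) with SE (bars) of the 5 abundant genes in 8 comparisons, each fitted on the 10 libraries of its 2 conditions. Filled points passed an adjusted p under 0.05 (edgeR): Scn3a after 2 h Bic, 2 genes in the SP active effect, 1 in the SP total effect, 1 in the LP passive effect, 4 in the LP active effect and 3 in the LP total effect.

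Against uninterrupted 2 h Bic, LP TTX/NMDA lowered Scn8a, Scn2b and Scn3b, 3 of 7 where 22.8% of all tested genes (11.1% as lower) and 57.8% of genes with at least 50 CPM (48.8% as lower) were called. Scn8a fell by 0.50 (SE 0.075, adjusted p = 2.43e-06 by edgeR), its largest change of the 12 comparisons. Scn3b fell by 0.30 (SE 0.074, adjusted p = 0.00193) and Scn2b by 0.32 on the log2 scale (SE 0.095, adjusted p = 0.0119 by edgeR). The Scn2b call was lost with a filter on low counts (0.0557) and with all 45 libraries in 1 fit (0.0625). Scn3a, which was already lower after 2 h Bic, differed by −0.15 (SE 0.083, adjusted p = 0.207) and rested on single preparations, with −0.054 (adjusted p = 0.714) without preparation 1 and −0.23 (adjusted p = 0.0139 by edgeR) without preparation 8. Scn1a differed by −0.12 (SE 0.10, adjusted p = 0.438 by edgeR).

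Against the 1 h of Bic that preceded the intervention, LP TTX/NMDA lowered Scn8a, Scn3a, Scn2b and Scn3b, 4 of 7 where 21.1% of all tested genes were called (10.2% as lower) and 53.3% of genes with at least 50 CPM (42.5% as lower). The log2 fold changes were −0.44, −0.37, −0.37 and −0.31 (adjusted p = 4.26e-05, 0.000926, 0.00253 and 0.00256 by edgeR), and Scn1a differed by −0.076 (SE 0.11). The 3 LP comparisons share the TTX/NMDA libraries. With TBOA none of the 7 genes was called against 2 h Bic by edgeR, where 0.602% of all tested genes were. None was called by DESeq2 and 0 had an unadjusted p under 0.05. Scn8a stood at 298, 262, 218, 263 and 262 CPM with TBOA and Scn3a at 75.0, 72.9, 58.8, 61.2 and 64.8 CPM, and both overlap 2 h Bic. The log2 differences of the 5 abundant genes ran from −0.089 (Scn8a, SE 0.071) to 0.11 (Scn3a, SE 0.070).

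The difference between the protocols was tested as an interaction over 20 libraries. For the active effect none of the 7 genes was called by edgeR or DESeq2, where edgeR called 2.57% of all tested genes, and 1, Scn1a, had an unadjusted p under 0.05. Scn1a differed most among the abundant genes, by −0.35 (SE 0.14, adjusted p = 0.235 by edgeR): NMDA moved it by 0.088 (SE 0.087) in the SP and −0.27 in the LP. In the paired fit, which called 25% of the genes it tested, 3 members had a more negative active effect in the LP, Scn1a by −0.35, Scn8a by −0.19 and Scn3b by −0.18 (adjusted p = 0.00664, 0.0213 and 0.0308). Scn3a (−0.11, adjusted p = 0.390) and Scn2b (−0.15, adjusted p = 0.0671) were not called there. For the passive effect none of the 7 was called by edgeR with or without pairing or by DESeq2, and 0 had an unadjusted p under 0.05, where 0.256% of all tested genes were called without pairing. The LP passive effect on Scn3a was thus not shown to differ from that in the SP (difference 0.11, SE 0.095). When each gene's 9 condition means were put in order, neighbours differed beyond their spread in 1 step each of Scn8a and Scn3b, from SP TTX/NMDA to LP TTX/NMDA, and in none of the steps of the other 5 genes.

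Scn9a and Scn4b were read near the limit of detection. Scn9a had 5 to 45 counts per library and condition means of 0.425 CPM (LP TTX/NMDA) to 0.636 CPM (SP TTX). Scn4b had 5 to 95 counts and condition means of 0.608 CPM (0.5 h Bic) to 0.80 CPM (LP TBOA). Neither was called in any of the 12 comparisons, and their SEs of log2 0.23 to 0.33 stand against 0.069 to 0.10 for Scn8a, so that a change of the size of its LP active effect could not be told from 0 at this depth. In the LP active effect Scn9a differed by −0.29 (SE 0.29) and Scn4b by 0.17 (SE 0.23). The locus of Scn4b, at chr9:45138395-45154152, starts close behind that of Scn2b, at chr9:45117782-45130070.

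**Figure D4:**
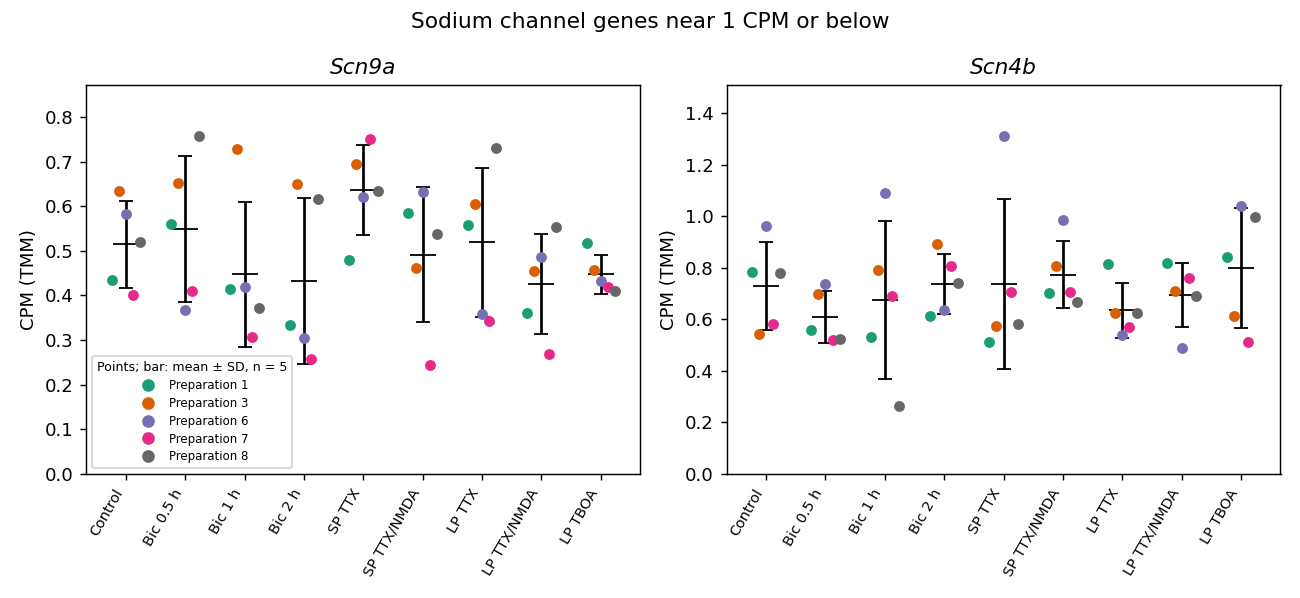
TMM-scaled CPM of Scn9a and Scn4b in each library (points, colored by preparation) with mean ± SD (bars, n = 5). All values lie between 0.244 and 1.31 CPM, and the conditions overlap throughout.

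Other genes of sodium channel function were taken as lists. The axon initial segment is the domain where ankyrin and spectrin hold the channels at high density. Of 10 of its genes, 10 fell and 0 rose in the LP active effect, with a median log2 fold change of −0.46. In that comparison 11.8% of all tested genes fell, and 48.8% of genes with at least 50 CPM. Cntn1 and Nrcam, adhesion proteins of axons, fell most (−0.77, SE 0.080, adjusted p = 1.31e-08, and −0.74, SE 0.073, adjusted p = 4.73e-09 by edgeR). In the SP active effect 6 of the 10 fell, where 3.32% of all tested genes and 15.2% of genes with at least 50 CPM did. After 2 h Bic 1 of the 10 was called, Sptbn4, which encodes the spectrin of initial segments (log2 0.38, SE 0.094, adjusted p = 0.00526 by edgeR), where 9.02% of all tested genes were.

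Of 4 fibroblast growth factor homologous factors, which bind the channel's C-terminal tail and set its inactivation, Fgf14 (−0.61, SE 0.084) and Fgf13 (−0.52, SE 0.074) fell and Fgf11 (0.25, SE 0.088) rose in the LP active effect. Of 4 tested genes of the sodium leak channel complex, which sets resting excitability, 3 fell, led by Unc80 (−0.72, SE 0.097) and Nalcn (−0.62, SE 0.070). Of all tested genes, 11.8% fell and 11.6% rose there, and 48.8% of genes with at least 50 CPM fell.

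Of 10 genes for channel processing and turnover, 8 fell and 0 rose in the LP active effect, with Prkca (−0.68, SE 0.070), a kinase, and Bace1 (−0.55, SE 0.064), the protease that cleaves β subunits, the lowest. Usp36 had risen by log2 1.02 (SE 0.087, adjusted p = 3.66e-11 by edgeR) after 2 h Bic. Of 7 regulators that bind sodium channel transcripts or genes, 4 fell in the LP active effect, with Rbfox1 (−0.62, SE 0.087) and the repressor Rest (−0.40, SE 0.14) among them. After 2 h Bic the RNA-binding repressor Pum2 was lower (−0.29, SE 0.076). The LP active counts are to be read against the 11.8% of all tested genes, and 48.8% of genes with at least 50 CPM, that fell there.

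Markers of cell types moved with NMDA as well. From LP TTX to LP TTX/NMDA, the 7 excitatory neuron markers went from a sum of 2513 ± 201 to 1334 ± 177 CPM (SD, n = 5), with 7 of 7 called as lower. The 8 GABAergic markers went from 2212 ± 308 to 2663 ± 367 CPM, with 4 called as higher, and the 8 astrocyte markers from 1244 ± 224 to 1651 ± 394 CPM, with 7 called as higher and Slc1a2, a glutamate transporter gene, as lower (log2 −0.36, SE 0.074). Of 9 oligodendrocyte lineage markers 5 were higher (143 ± 30.5 to 247 ± 70.0 CPM), as were 6 of 8 endothelial and fibroblast markers (199 ± 71.2 to 341 ± 137 CPM) and 3 of 7 microglia markers (8.56 ± 1.22 to 10.9 ± 1.48 CPM). In the SP active effect 5 of 7 excitatory markers were lower (2615 ± 270 to 1813 ± 206 CPM) and 5 of 8 GABAergic ones higher (1781 ± 191 to 2321 ± 326 CPM). Of all tested genes, 11.8% were lower and 11.6% higher in the LP active effect, and 3.32% lower and 0.956% higher in the SP active effect. The part of these shifts in the lower levels of the sodium channel genes was not tested.

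**Figure D5:**
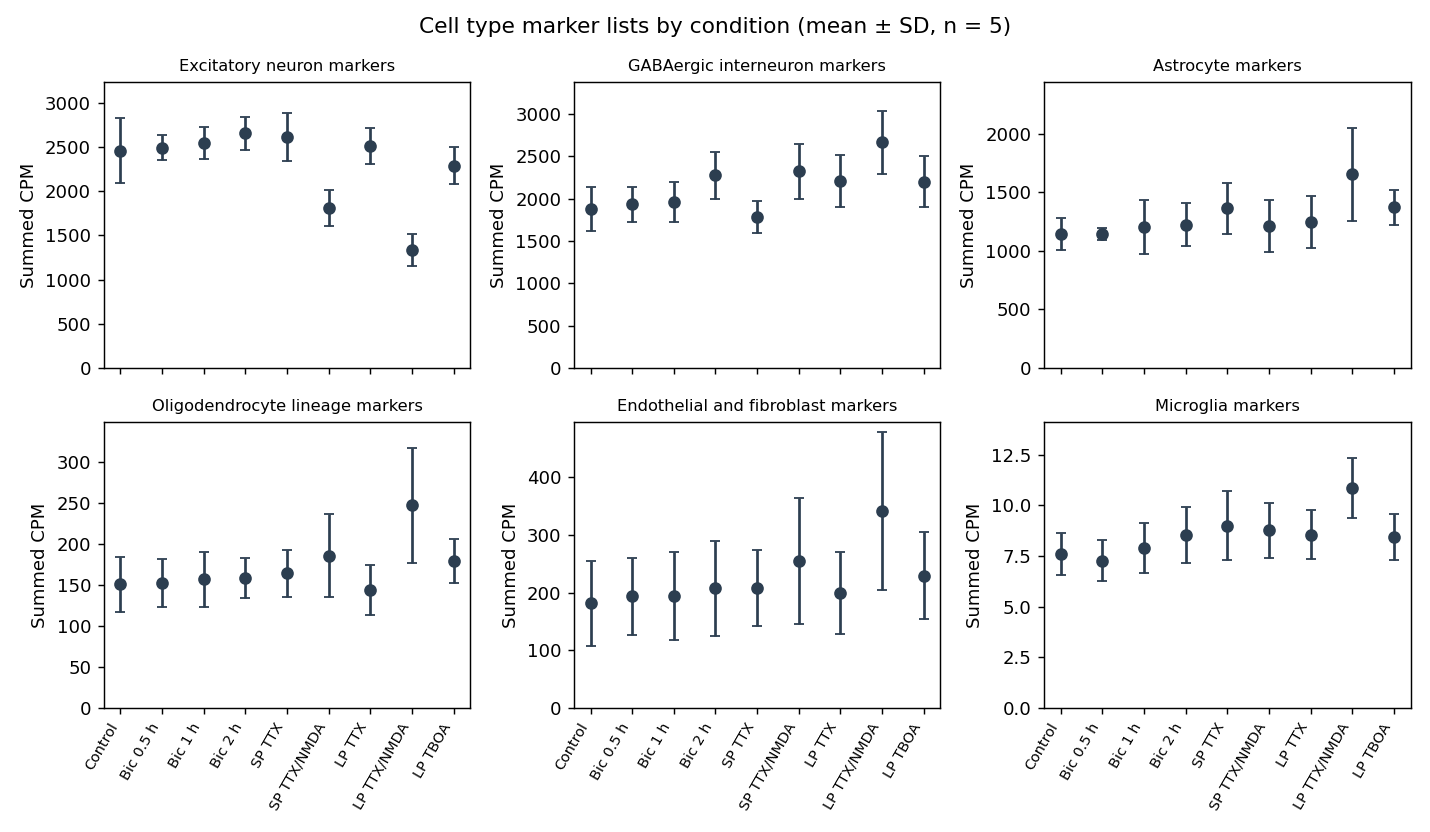
Summed CPM of 6 cell type marker lists in the 9 conditions (points, mean; bars, SD; n = 5). The excitatory sum is lowest and the astrocyte, GABAergic, oligodendrocyte, fibroblast and microglia sums are highest with LP TTX/NMDA.

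Likeness of pattern was measured as the correlation of log2 CPM over the 45 libraries, which share preparations and conditions, among genes with a mean of at least 1 CPM. Scn8a lay closest to Dnmt3a (r = 0.965), Map1a (0.957) and Wdfy3 (0.956), and Scn3a to Sestd1 (0.914), Grik2 (0.914) and Pds5b (0.903). Scn1a lay closest to Aldh5a1 (0.864), Cemip and Rapgef4 (both 0.83). For the β subunits, Scn2b lay closest to Cntnap1 (0.875), Cbx6 (0.872) and Chn1 (0.854), and Scn3b to Nkain2 (0.910), Plxnc1 (0.878) and Apaf1 (0.877). The nearest genes of the low genes were far less alike, with Ctdspl2 (0.686), Casd1 (0.682) and 9530080O11Rik (0.663) for Scn9a and Dtx3l (0.527), Slc25a35 (0.488) and 4930473A02Rik (0.477) for Scn4b. Among the members, correlations ran from −0.252 (Scn1a with Scn3b) to 0.62 (Scn8a with Scn2b), with Scn3a and Scn3b next at 0.548.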

How the data were processed

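The authors enriched poly-A RNA, made directional libraries and ran 75 single-end cycles. They aligned reads with STAR (version 2.5.4b) to GRCm38 with Ensembl release 94, and deposited raw counts per gene made with featureCounts (version 1.6.5) by strand and not normalized. Reads with more than 1 possible place or gene were left out by the authors. Symbols were assigned to 54409 of 54532 gene IDs, and exon lengths and loci come from GENCODE M21, a later release than the authors used. Members and gene lists were chosen with earlier results of these data known. All 7 members are named in every comparison. Of each other list, the genes named are up to 2 called with the highest and up to 2 with the lowest log2 fold change in the LP active effect and after 2 h Bic, and 3 genes most correlated with each member are named.

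Counts were tested in R 4.3.3 with edgeR 4.0.16 (TMM, quasi-likelihood test) on the libraries of the 2 conditions compared, over genes with at least 1 read, with Benjamini-Hochberg adjustment over all genes. The choice of libraries follows the study's methods, which used DESeq2, here an alternative (version 1.42.0). Those methods name no block, and none was used in the main test. The background among genes with a mean of at least 50 CPM was added after the data were seen. Depth was 11316580 to 81129276 counts per library.

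The sample titles give each library a replicate number. The study defines each preparation as 1 replicate, so the number was read as the culture preparation. Libraries of 1 number deviated together from their condition means (mean correlation 0.434 over 180 pairs and 13592 genes, against −0.107 over 720 pairs of different numbers). A paired fit with the preparation as a block was therefore made over genes that pass edgeR's filterByExpr. Over all genes with a read, the block gave infinite prior degrees of freedom for 2 h Bic against the control, where this was looked at. The other alternatives were DESeq2 size factors, the low-count filter, all 45 libraries in 1 fit and leaving out each preparation. Some genes of the lists are not reported here.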

Additional observations from a re-analysis of the deposited data

Results flagged for a closer look

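Of 63 groups of 5 libraries (7 genes in 9 conditions), 4 had a library that stood apart from the other 4 by more of the group's range than Dixon's 95% critical value, where chance alone gives about 1 in 20. Scn1a in SP TTX was 72.0 CPM in preparation 8, against 93.0 to 96.6 CPM in the others. Scn2b with LP TBOA was 199 CPM in preparation 1, against 133 to 144 CPM. Scn9a after 1 h Bic was 0.728 CPM in preparation 3, against 0.307 to 0.418 CPM, and Scn4b in SP TTX was 1.31 CPM in preparation 6, against 0.510 to 0.706 CPM. No comparison of 2 conditions that holds one of these 4 groups gave a call for its gene.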

How the results depend on the processing

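No member changed direction in a called comparison under any alternative. With the preparation as a replicate block over genes that pass filterByExpr, the number of members called went from 1 to 4 in the SP total effect, from 1 to 2 in the LP passive effect, from 1 to 4 for SP TTX/NMDA against its start and from 0 to 3 for the difference of the active effects. With the block over all genes with a read, it was 1 after 1 h Bic (Scn8a) and 2 after 2 h Bic (Scn3a and Scn8a). In that fit it was 4 in the SP total effect and 2 in the LP passive effect. It was 4 for SP TTX/NMDA against its start and 1 for the difference of the active effects. In 1 fit of all 45 libraries it was 1 in the SP active effect and 0 in the SP total effect, the LP passive effect and SP TTX/NMDA against its start. For the last of these, DESeq2, DESeq2's size factors and filterByExpr each gave 2. When 1 preparation was left out, the number ran from 0 to 1 after 2 h Bic and in the LP passive effect, from 0 to 2 in the SP active effect, the SP total effect and SP TTX/NMDA against its start, from 3 to 5 in the LP active effect, from 3 to 4 in the LP total effect, and stayed 4 for LP TTX/NMDA against its start. These runs have 4 libraries a group, and otherwise the cause was not tested. The calls that held in all of these settings were those of Scn8a, Scn3a and Scn3b in the LP active effect and of Scn8a and Scn3b in the LP total effect, and all 4 for LP TTX/NMDA against its start. Depth limits Scn9a and Scn4b.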

Other observations

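A transcript on the strand opposite to Scn1a rose after 2 h Bic. Gm13630, annotated on the plus strand at chr2:66409494-66421588 within the Scn1a locus, shares 0 exon bases with Scn1a and was counted by strand. It was chosen after its values were seen. It stood at 0.706 ± 0.116 CPM in the control and at 1.76 ± 0.251 CPM after 2 h Bic (SD, n = 5), groups that did not overlap, with a log2 fold change of 1.34 (SE 0.22, adjusted p = 2.75e-05 by edgeR) and higher values in 5 of 5 preparations. With LP TTX/NMDA it was 1.84 ± 0.202 CPM, 1.12 higher on the log2 scale than after 1 h Bic (SE 0.21, adjusted p = 8.14e-05 by edgeR). That level was not called against 2 h Bic (log2 0.045, SE 0.18, adjusted p = 0.897 by edgeR) or LP TTX (0.34, SE 0.18, adjusted p = 0.2035). The paired fit called the latter (0.36, adjusted p = 0.0319), with 62.1% of the genes it tested called. Mean levels were 1.405 CPM with LP TTX and 1.664 CPM with LP TBOA. Gm13630 had 7 to 101 counts per library. Scn1a itself differed after 2 h Bic by log2 0.071 (SE 0.12). Gm13629, which starts 40 bases from Scn1a on the other strand, was 1.42 ± 0.633 CPM in the control and 1.47 ± 0.435 CPM after 2 h Bic.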
